A study of Mus musculus with 30 samples.

Results

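The mouse hypothalamus after a 72 h fast with cold treatment was compared with the hypothalamus after 24 h without food. The comparison uses 6 of the 30 libraries of the series, 3 from mice fasted for 72 h with cold treatment at 18 C and 3 from mice fasted for 24 h. All mice were WT on the B6 background, and the sources used here give neither sex nor age nor the number of animals in a library. The duration of the fast and the cold treatment both differ between these groups, so their parts in any difference cannot be told apart. When the cold began, how long it lasted and the temperature of the 24 h group are not given in the sources used here. A group fasted for 72 h without cold (n = 3) and a fed group (n = 3) were fitted in the same model, and their values stand beside some genes. Total RNA had been depleted of ribosomal RNA and sequenced, and the 20408 of 52286 genes that passed a filter on low counts were tested.

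The hypothalamus holds the arcuate neurons that sense energy stores, where Agrp and Npy neurons drive feeding and Pomc neurons restrain it, and the preoptic neurons that defend body temperature. It lies beneath the thalamus and close to the striatum, whose spiny projection neurons carry dopamine receptors and opioid peptides. Neurons that fire strongly switch on immediate early genes such as Arc, Fos and the Egr family within minutes, and the transcripts are a standard readout of recent activity.

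Total counts ran between 32482699 and 34757456 for cold 72 h, and for 24 h between 27699391 and 32445690. Levels are in CPM, the counts scaled to a common library size with edgeR's TMM factors. Changes are log2 fold changes, cold 72 h minus 24 h, ± SE. Genes with an adjusted p below 0.05 in edgeR's quasi-likelihood test (Benjamini-Hochberg over all genes tested) are referred to as called. Since nothing says which libraries are separate animals, the p-values cover only library-to-library spread, which may be technical. Libraries of the 24 h group were unevenly alike: the counts of library 2 differed from those of libraries 1 and 3 with a chi-square of 95.9 and 79.1 per degree of freedom, while libraries 1 and 3 differed from each other by 3.51. Pairs within the other groups gave values between 18.8 and 42.3 in the cold 72 h group, 15.8 and 17.6 in the 72 h group without cold, and 21.5 and 106 in the fed group, so libraries 1 and 3 of the 24 h group were closer than any other pair. Whether these came from separate animals is not given, and if they did not, the 24 h group holds fewer than 3 independent samples and the p-values are too small. Of 20 marker genes of hypothalamic nuclei, 17 passed the filter on low counts and 0 were called, while 3 were at 0 in all 6 libraries, which is not read as silence because genes inside other genes can lose their counts. Their summed level was 122, 156 and 89.2 CPM in cold 72 h libraries, against 147, 144 and 152 CPM in 24 h libraries.

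In all, 1424 genes were called, 6.98% of those tested. Of these, 766 were higher in the cold 72 h group (3.75% of those tested) and 658 were lower (3.22%). The balance moved with the model: 78 were higher and 143 lower with 1 surrogate variable, and 599 were higher and 253 lower with only these 2 groups fitted. Without library 2 of the 24 h group 122 were higher and 196 lower. The change was over 2-fold for 382 of the higher genes and for 190 of the lower genes. Transcripts induced by neuronal activity, markers of striatal neurons and markers of blood vessels were among the genes that fell. The genes that rose had a median span of 125 kb, against 19 kb for the genes that fell. Over all genes tested the median log2 fold change was -0.03. The number of calls rested on single libraries. Without library 1 of the cold 72 h group 39 genes were called, and without library 2 of the 24 h group 318. In bulk tissue, fewer cells of a type and less RNA per cell cannot be told apart.

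**Figure D1:**
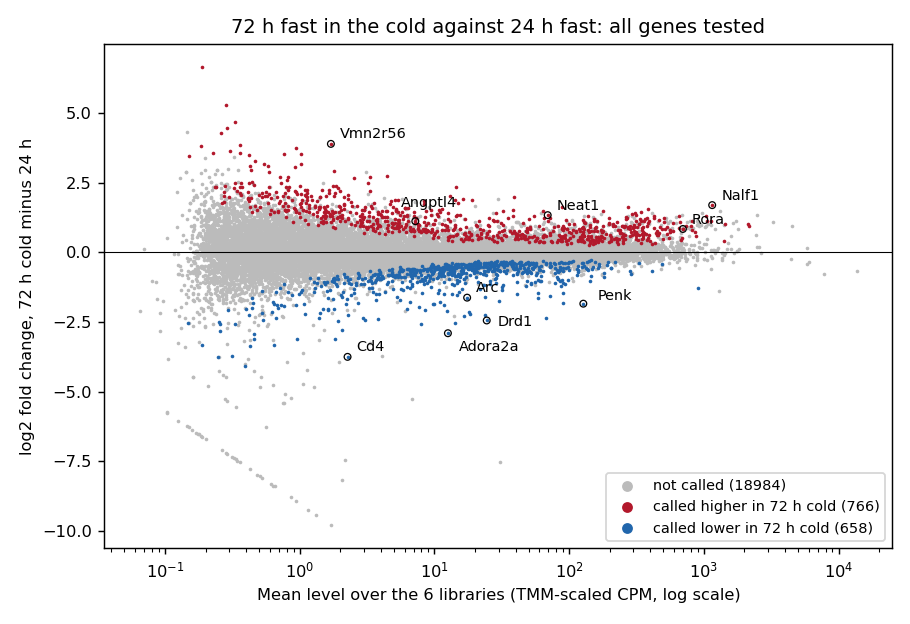
Each point is a gene tested, placed by its mean level over the 6 libraries (TMM-scaled CPM, log scale) and its log2 fold change, cold 72 h minus 24 h. Red points are the 766 genes called higher, blue points the 658 called lower and grey points those not called. Arc, Penk, Drd1, Adora2a and Cd4 lie among the lower genes, and Vmn2r56, Neat1 and Nalf1 among the higher ones.

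Among well expressed genes with the smallest adjusted p were several whose libraries lay close together within each group. Arc was also among them and is described with the activity-induced genes. Kctd21, which encodes an adaptor of a ubiquitin ligase (chr7:97332327-97350213 in GRCm38), had 8.86, 10.2 and 10.6 CPM in cold 72 h libraries, against 20.4, 21.2 and 19.5 CPM in 24 h libraries. Each group is tight and they lie far apart. Its log2 fold change was -1.04 ± 0.11 (edgeR, adjusted p = 0.00271). Thap2, a zinc finger protein gene (chr10:115368404-115384443), had 19.6, 22.9 and 20.3 CPM in cold 72 h libraries, against 35.9, 38.5 and 37.2 CPM in 24 h libraries, again with no overlap, and its log2 fold change was -0.83 ± 0.09 (edgeR, adjusted p = 0.00271). Srr, which makes the NMDA receptor co-agonist D-serine, averaged 20.9 ± 1.57 CPM in the cold 72 h group and 33.0 ± 1.95 CPM in the 24 h group (SD, n = 3 each). P4ha1, the catalytic subunit of collagen prolyl 4-hydroxylase, had 33.0, 39.5 and 38.3 CPM in cold 72 h libraries, against 61.9, 60.2 and 59.9 CPM in 24 h libraries. The lowest 24 h library was well above the highest cold 72 h library. Arpp21, a cyclic AMP-regulated phosphoprotein gene abundant in striatal neurons, averaged 210.0 ± 19.6 CPM in the cold 72 h group and 364 ± 13.4 CPM in the 24 h group (SD, n = 3 each). Others rose. The noncoding transcript 9330111N05Rik had 70.1, 64.5 and 63.8 CPM in cold 72 h libraries, against 36.5, 39.7 and 34.8 CPM in 24 h libraries. Other genes overlap 26.4% of its span. Mipol1 had 55.7, 58.0 and 52.9 CPM in cold 72 h libraries, against 37.0, 34.5 and 36.5 CPM in 24 h libraries. Its call was lost with an offset for gene span. The noncoding transcripts listed as Arhgap26 and A330093E20Rik rose by 1.54 ± 0.21 and 1.02 ± 0.14 on the log2 scale. Other genes overlap 83.5% of the span of the first. The spans are 165977 bases for 9330111N05Rik, 266773 for Mipol1, 433817 for Arhgap26 and 361774 for A330093E20Rik. Kctd21, Thap2, Srr, P4ha1 and 9330111N05Rik kept their calls under all 17 alternative settings and left-out libraries that were tried.

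Of 30 immediate early and activity-induced genes, all of which were tested, 13 were called lower and 0 higher, or 43.3%, against 6.98% of all genes tested. Their median log2 fold change was -0.58, against -0.03 for all genes tested, and 27 of the 30 were negative. With an offset for gene span the median was -0.40 and 22 were negative. With 1 surrogate variable it was -0.54 and 23 were negative. In 19 of the 30 every cold 72 h library lay below every 24 h library, which held for 16.1% of all genes tested. The summed level of the list was 533, 454 and 499 CPM in cold 72 h libraries, against 629, 988 and 659.6 CPM in 24 h libraries. The groups did not overlap, and library 2 of the 24 h group was much the highest. Without that library 7 members were called lower, with a median of -0.51, and without library 1 of the cold 72 h group 2 were called lower. Markers of striatal projection neurons were lower in the same libraries, with 9 of 14 called and summed levels between 722 and 972 CPM in the cold 72 h group and between 1376 and 1471 CPM in the 24 h group. Their part in the change of the activity-induced genes was not tested.

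Arc, whose protein is made at active synapses (chr15:74669083-74672570), had 8.43, 7.58 and 9.59 CPM in cold 72 h libraries, against 19.99, 37.6 and 21.6 CPM in 24 h libraries. All cold 72 h libraries were low and close together, and library 2 of the 24 h group was the highest. The change was 3.09-fold lower, or -1.63 ± 0.21 on the log2 scale (edgeR, adjusted p = 0.00675), and the call held under all 17 alternatives. Junb, an AP-1 transcription factor gene (chr8:84974484-84978718), had 7.61, 7.13 and 6.55 CPM in cold 72 h libraries, against 14.8, 29.0 and 16.2 CPM in 24 h libraries. The groups were apart, with a log2 fold change of -1.49 ± 0.23 (edgeR, adjusted p = 0.00912), and adjusted p = 0.0565 without library 1 of the cold 72 h group. Nr4a1, an orphan nuclear receptor gene (chr15:101254269-101274795), had 18.1, 12.6 and 12.6 CPM in cold 72 h libraries, against 25.8, 42.1 and 28.6 CPM in 24 h libraries, again without overlap. Homer1 encodes a scaffold of metabotropic glutamate receptors and has a short activity-induced form, which gene counts do not separate. It had 89.4, 88.3 and 72.2 CPM in cold 72 h libraries, against 126, 181 and 129 CPM in 24 h libraries, a log2 fold change of -0.80 ± 0.14 (edgeR, adjusted p = 0.0116).

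The Egr zinc finger factors had large changes. Egr2 had 0.978, 0.539 and 0.0601 CPM in cold 72 h libraries, against 2.82, 5.24 and 2.81 CPM in 24 h libraries, and its log2 fold change was -2.78 ± 0.58. Egr4 had 1.28, 1.24 and 1.05 CPM in cold 72 h libraries, against 3.35, 11.7 and 4.03 CPM in 24 h libraries, and Egr3 had 6.57, 7.35 and 2.79 CPM in cold 72 h libraries, against 16.9, 43.5 and 21.9 CPM in 24 h libraries. In both the cold 72 h libraries were all below the 24 h libraries, and library 2 was the highest of the 24 h group. Egr1 averaged 30.8 ± 3.00 CPM in the cold 72 h group and 85.7 ± 38.0 CPM in the 24 h group (SD, n = 3 each). Npas4, a factor induced by calcium entry, had 2.75, 3.49 and 1.68 CPM in cold 72 h libraries, against 9.79, 6.24 and 9.57 CPM in 24 h libraries, and here library 2 was the lowest of the 24 h group. Fosl2, Nr4a3, Ier5 and the antiproliferative gene Btg2 were also called, with log2 fold changes of -1.08, -1.44, -1.11 and -0.63. Fos itself had 7.73, 5.74 and 7.24 CPM in cold 72 h libraries, against 10.2, 17.9 and 10.6 CPM in 24 h libraries. The groups were apart, but the gene was not called (edgeR, adjusted p = 0.056). Its level was lower still in the 72 h group without cold, at 3.30, 2.40 and 3.68 CPM, and 17.6, 9.42 and 13.0 CPM in fed libraries. Per1, which is both an immediate early and a clock gene, had 121, 81.9 and 103 CPM in cold 72 h libraries, against 84.2, 105 and 89.6 CPM in 24 h libraries, and these overlapped.

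**Figure D2:**
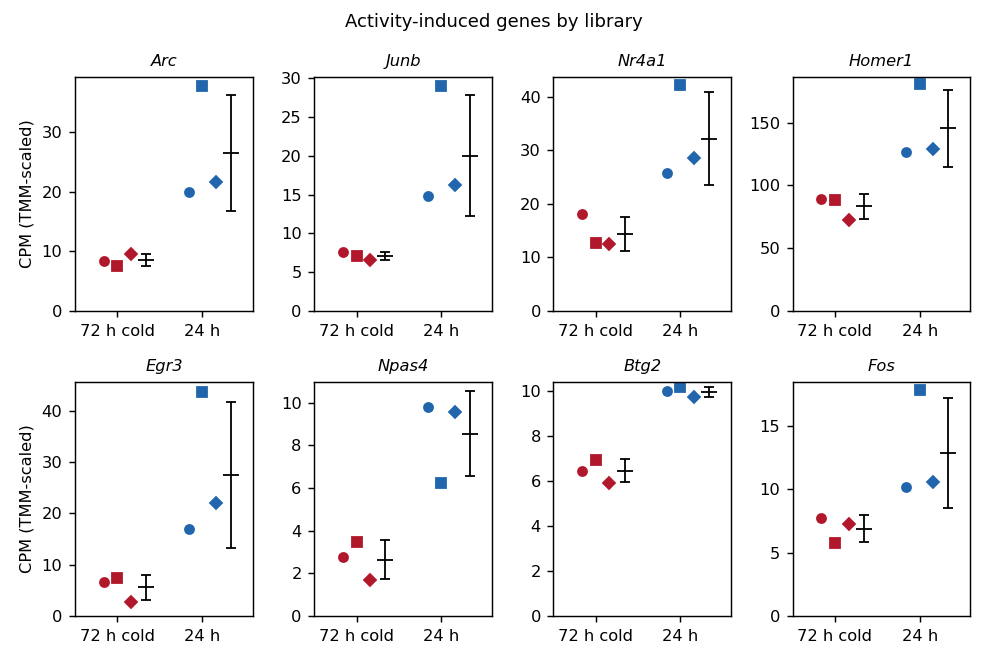
TMM-scaled CPM of 8 activity-induced genes in each library, with the cold 72 h group (red) left of the 24 h group (blue). Circles, squares and diamonds are replicates 1, 2 and 3, and black bars give the mean ± SD of 3 libraries. In each panel all red points lie below all blue points; Fos was not called.

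Promoter windows from RefSeq (GRCm38.p6, 250 bases before to 50 after the annotated start) were found for 24 of the 30 genes. Each was searched on both strands for the cyclic AMP response element TGACGTCA, the site bound by CREB, and for the CArG box, the site bound by serum response factor. The response element was found in 2 of 24 genes, Btg2 and Dusp1, against 2.03% of 27025 genes with a window. The CArG box was found in 2 of 24, Egr2 and Dusp5, against 1.81% of all genes. The windows of the called genes Egr2 and Btg2 are shown, with the matching letters in capitals, to let the reader see the regulatory sequence in front of a gene that fell. That of Egr2 lies at chr10:67537619-67537918 on the plus strand and that of Btg2 at chr1:134079106-134079405 on the minus strand.
Egr2: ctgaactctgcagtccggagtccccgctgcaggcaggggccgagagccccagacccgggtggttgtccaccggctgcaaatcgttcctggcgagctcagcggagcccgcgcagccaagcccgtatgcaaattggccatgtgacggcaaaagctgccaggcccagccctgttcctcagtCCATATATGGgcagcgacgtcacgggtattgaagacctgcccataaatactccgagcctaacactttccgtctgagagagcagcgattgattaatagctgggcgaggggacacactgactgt
Btg2: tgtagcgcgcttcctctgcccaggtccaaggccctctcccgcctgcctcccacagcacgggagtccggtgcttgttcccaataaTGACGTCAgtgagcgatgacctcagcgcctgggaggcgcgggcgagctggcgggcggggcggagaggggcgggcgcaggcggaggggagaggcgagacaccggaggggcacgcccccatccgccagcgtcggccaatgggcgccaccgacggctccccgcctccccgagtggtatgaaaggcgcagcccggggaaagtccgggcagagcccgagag

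Markers of striatal projection neurons were lower in the cold 72 h group. Of 14 markers, all tested, 9 were called lower and 0 higher, or 64.3%, against 6.98% of all genes tested. All 14 had negative log2 fold changes, with a median of -1.34. The median was -1.48 with an offset for gene span and -1.16 with 1 surrogate variable. In 11 of the 14 every cold 72 h library was below every 24 h library, against 16.1% of all genes tested. The summed level was 751, 972 and 722 CPM in cold 72 h libraries, against 1376, 1471 and 1381 CPM in 24 h libraries, and 711, 597 and 664 CPM in the 72 h group without cold and 1075, 1468 and 909 CPM in the fed group. Cold 72 h library 2 was the highest of its group. The calls rested on few libraries: 0 members were called without library 1 of the cold 72 h group, 0 without library 2 of the 24 h group and 1 without library 3 of the cold 72 h group, while the median stayed at -1.10 and -1.36 in the first 2 of these cases. How much striatum each dissection held was not tested.

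Drd1, the dopamine D1 receptor gene of the direct pathway (chr13:54051183-54055705), had 5.65, 12.1 and 4.93 CPM in cold 72 h libraries, against 32.9, 57.2 and 33.7 CPM in 24 h libraries. The lowest 24 h library was above the highest cold 72 h library, which was library 2. Its log2 fold change was -2.45 ± 0.57 (edgeR, adjusted p = 0.0353). Adora2a, the adenosine receptor gene of the indirect pathway (chr10:75316877-75334784), had 1.10, 6.40 and 1.41 CPM in cold 72 h libraries, against 19.7, 27.7 and 19.2 CPM in 24 h libraries, and its log2 fold change was -2.90 ± 0.72 (edgeR, adjusted p = 0.0423). In both genes library 2 was the highest within its own group, in both groups. Gpr6, an orphan receptor gene, Rgs9, which speeds the end of G protein signals, and Rasd2 had log2 fold changes of -2.05, -0.98 and -0.83. Ppp1r1b, the DARPP-32 gene, had -2.26, but a gene on the opposite strand covers 75.4% of its span. If reads were counted without strand, as appears but is not given, the values of such a pair may not be separate. The long genes Pde10a and Foxp1 were not called. Pde10a had 323, 415 and 304 CPM in cold 72 h libraries, against 409, 350.2 and 399 CPM in 24 h libraries, which overlapped. Foxp1 had 158, 157 and 162 CPM in cold 72 h libraries, against 197, 160 and 195 CPM in 24 h libraries, which also overlapped. Another gene covers 44.4% of the Foxp1 span. Pde10a was called lower under 2 of 17 alternatives and Foxp1 under 3, with lowest log2 fold changes of -0.79 and -0.93.

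The opioid and tachykinin precursors of the list are also feeding peptides. Penk, the enkephalin precursor (chr4:4133531-4138819), had 51.6, 76.8 and 38.0 CPM in cold 72 h libraries, against 172, 254 and 172 CPM in 24 h libraries, without overlap, and a log2 fold change of -1.84 ± 0.35 (edgeR, adjusted p = 0.0197). Tac1, the substance P precursor, had 14.9, 29.9 and 18.9 CPM in cold 72 h libraries, against 49.9, 78.4 and 52.7 CPM in 24 h libraries, also without overlap. Pdyn, the dynorphin precursor, averaged 14.2 ± 3.32 CPM in the cold 72 h group and 31.7 ± 9.45 CPM in the 24 h group (SD, n = 3 each), a log2 fold change of -1.16 ± 0.27. Crym, a thyroid hormone-binding protein gene expressed in forebrain neurons and listed here with tanycytes and thyroid action, had 2.20, 8.72 and 1.41 CPM in cold 72 h libraries, against 19.3, 32.7 and 20.3 CPM in 24 h libraries, with the cold 72 h value again highest in library 2. Other forebrain neuron genes were picked after their values were seen. Kcnv1, a silent potassium channel subunit gene, averaged 4.64 ± 1.62 CPM in the cold 72 h group and 19.9 ± 9.35 CPM in the 24 h group. Chrm1, the M1 muscarinic receptor gene, averaged 13.7 ± 4.73 CPM in the cold 72 h group and 46.1 ± 13.1 CPM in the 24 h group. Itpka, Ddn and Nrgn, genes of dendritic spine and dendrite proteins, had log2 fold changes of -1.80, -1.83 and -1.11, and all were called.

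The 14 markers of thalamic and cortical excitatory neurons gave no common direction, with 1 called higher, 0 called lower and 8 negative. The share called was 7.14%, near the 6.98% of all genes tested. Their summed level was 2362, 1610.0 and 2424 CPM in cold 72 h libraries, against 1633, 1825 and 1636 CPM in 24 h libraries. Cold 72 h libraries 1 and 3 were high and library 2 was at the level of the 24 h group. Tcf7l2, a transcription factor gene of thalamic neurons, had 303, 129.97 and 333 CPM in cold 72 h libraries, against 152, 159 and 159 CPM in 24 h libraries, in the same pattern, and was not called. Camk2a, the forebrain calcium kinase gene, had 557, 421 and 452 CPM in cold 72 h libraries, against 552, 758 and 565 CPM in 24 h libraries and was not called. The cold 72 h library with the highest striatal sum was thus the one with the lowest thalamic and cortical sum. Their part in the other results was not tested.

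**Figure D3:**
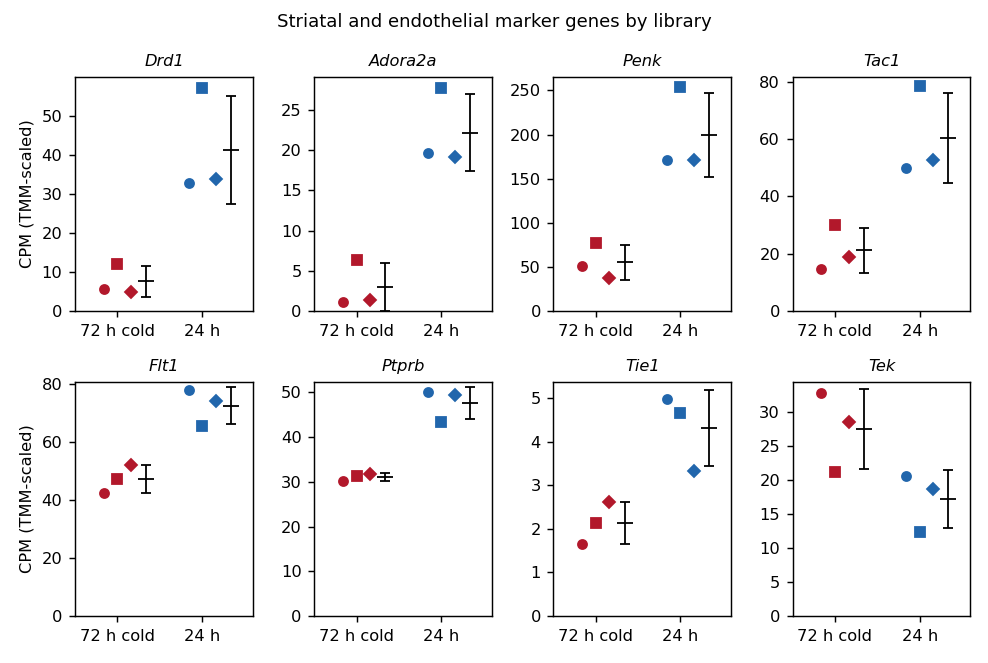
TMM-scaled CPM of 4 striatal markers (top) and 4 endothelial markers (bottom) in each library, with the cold 72 h group (red) left of the 24 h group (blue). Circles, squares and diamonds are replicates 1, 2 and 3, and black bars give the mean ± SD of 3 libraries. All red points lie below all blue points except in Tek, where they lie above them.

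Markers of brain blood vessels were lower in the cold 72 h group. Of 15 endothelial markers tested, 7 were called lower and 1 higher, or 53.3%, against 6.98% of all genes tested. The median log2 fold change was -0.50. Their summed level was 319, 296 and 356 CPM in cold 72 h libraries, against 446, 420.5 and 425 CPM in 24 h libraries. The sums did not overlap and library 2 of the 24 h group did not stand apart. The 72 h group without cold had 351, 360 and 357 CPM and the fed group 547, 521 and 490 CPM. Without library 2 of the 24 h group 3 were called lower, and without library 1 of the cold 72 h group 0 were, with medians of -0.38 and -0.50.

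Flt1 encodes a receptor for vascular endothelial growth factor (chr5:147561604-147726011). It had 42.4, 47.4 and 52.1 CPM in cold 72 h libraries, against 78.1, 65.6 and 74.1 CPM in 24 h libraries, a log2 fold change of -0.62 ± 0.11 (edgeR, adjusted p = 0.0116). Ptprb, the vascular endothelial phosphatase gene (chr10:116275523-116389535), had 30.1, 31.4 and 31.8 CPM in cold 72 h libraries, against 50.03, 43.4 and 49.4 CPM in 24 h libraries. The cold 72 h libraries were almost equal, and all below the 24 h libraries. Both genes kept their calls under 16 of 17 alternatives and lost them without library 1 of the cold 72 h group. Tie1, an orphan receptor of the angiopoietin system, had 1.65, 2.12 and 2.61 CPM in cold 72 h libraries, against 4.98, 4.65 and 3.32 CPM in 24 h libraries, and 4.22, 4.801 and 4.00 CPM in the 72 h group without cold. Ocln, a tight junction gene, and the barrier transporter genes Slco1a4 and Slc2a1 had log2 fold changes of -0.68 ± 0.14, -0.50 ± 0.12 and -0.38 ± 0.09, and Itm2a, a membrane protein gene of endothelial cells, had -1.11 ± 0.24. Slc2a1 is the glucose carrier of the blood-brain barrier, and the only called gene of 26 in the glycolysis and glucose transport list. The share called in that list was 3.85%, against 6.98% of all genes tested. Tek, the angiopoietin receptor gene, was the exception. It had 32.7, 21.1 and 28.4 CPM in cold 72 h libraries, against 20.6, 12.3 and 18.6 CPM in 24 h libraries, with the groups apart and a log2 fold change of 0.67 ± 0.18 (edgeR, adjusted p = 0.0433), a call lost under 7 of 17 alternatives. Abcb1a, the drug efflux pump gene, had 28.1, 29.4 and 31.0 CPM in cold 72 h libraries, against 36.5, 31.8 and 33.2 CPM in 24 h libraries and was not called.

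In the wall of the vessels, 3 of 14 pericyte and smooth muscle markers were called lower and 0 higher, or 21.4%, against 6.98% of all genes tested. The shares called among the lists that follow were 16.7% for microglia, 10% for blood cells, 9.09% for choroid plexus and 18.2% for tanycytes. The contractile genes Myh11 and Acta2 averaged 4.18 ± 0.465 CPM in the cold 72 h group and 7.76 ± 0.964 CPM in the 24 h group for Myh11, and 3.72 ± 0.671 CPM in the cold 72 h group and 7.83 ± 0.353 CPM in the 24 h group for Acta2 (SD, n = 3 each). Rgs5, a pericyte gene, had 35.4, 36.7 and 56.9 CPM in cold 72 h libraries, against 63.8, 65.1 and 61.6 CPM in 24 h libraries, where cold 72 h library 3 came close to the 24 h libraries. Of 12 microglial markers, the lipid receptor gene Trem2 and the Fc receptor-like gene Fcrls were called lower, with log2 fold changes of -0.97 ± 0.23 and -0.88 ± 0.24, while Csf1r, the growth factor receptor gene of these cells, had 37.5, 40.7 and 43.5 CPM in cold 72 h libraries, against 46.4, 57.0 and 43.7 CPM in 24 h libraries and was not called. Of 10 blood cell genes Hba-a2, an alpha globin gene with a near-identical copy, was called lower, at 0.0723 ± 0.0366 CPM in the cold 72 h group and 0.430 ± 0.170 CPM in the 24 h group. No member was called among 12 markers of meningeal fibroblasts (median -0.68), 14 of astrocytes (0.01), 14 of oligodendrocytes (-0.10), 9 of oligodendrocyte precursors (-0.05) and 9 of ependymal cells (-0.02). Of 11 choroid plexus markers the chloride channel gene Clic6 was called lower, with a log2 fold change of -0.95 ± 0.18, with other genes over 21.0% of its span. Of 11 tanycyte markers, Crym was lower and Col25a1, a collagen gene also expressed in neurons, was higher, with 335, 252 and 286 CPM in cold 72 h libraries, against 169.8, 162 and 167 CPM in 24 h libraries. Its log2 fold change was 0.81 ± 0.14, but 0.16 with an offset for gene span, where it was not called, nor was it with 1 surrogate variable or without library 1 of the cold 72 h group.

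Liver transcripts were far lower in the cold 72 h libraries than in the 24 h libraries. They were also low in the 72 h group without cold, where the summed level of 16 liver genes was 9.77, 5.53 and 4.98 CPM. This sum was 5.20, 5.26 and 4.78 CPM in cold 72 h libraries, against 59.0, 219.5 and 77.0 CPM in 24 h libraries, and 18.9, 1223 and 352 CPM in the fed group. In 15 of the 16 every cold 72 h library was below every 24 h library, against 16.1% of all genes tested, and 0 were called. Alb, the serum albumin gene, had 0.153, 0.666 and 0.180 CPM in cold 72 h libraries, against 31.1, 109 and 41.9 CPM in 24 h libraries. The groups were far apart, and library 2 was the highest of the 24 h group (edgeR, adjusted p = 0.0623). Skeletal muscle genes summed to 28.3, 28.5 and 54.2 CPM in cold 72 h libraries, against 34.8, 44.3 and 34.9 CPM in 24 h libraries, with 0 of 11 called, and pituitary hormone cell genes to 2.26, 1.65 and 2.13 CPM in cold 72 h libraries, against 3.13, 5.43 and 2.93 CPM in 24 h libraries, with 0 of 6 called. The part of RNA from other tissues in the results was not tested.

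The appetite peptides of the arcuate nucleus were not called. Agrp, the orexigenic melanocortin antagonist (chr8:105566698-105637393), had 3.61, 3.58 and 3.58 CPM in cold 72 h libraries, against 5.01, 4.98 and 5.33 CPM in 24 h libraries. The cold 72 h libraries were almost equal and lay below the 24 h libraries, with a log2 fold change of -0.51 ± 0.15 (edgeR, adjusted p = 0.0542). Other genes overlap 59.9% of its annotated span. Npy, its partner in the same neurons, had 14.1, 17.9 and 12.2 CPM in cold 72 h libraries, against 11.5, 23.1 and 13.9 CPM in 24 h libraries, which overlapped. Pomc, the precursor of alpha-melanocyte-stimulating hormone, had 1.59, 3.04 and 2.28 CPM in cold 72 h libraries, against 3.94, 5.80 and 3.29 CPM in 24 h libraries, without overlap, a log2 fold change of -0.91 ± 0.28 (edgeR, adjusted p = 0.0679). Cartpt had 15.3, 30.8 and 27.2 CPM in cold 72 h libraries, against 16.6, 30.3 and 16.7 CPM in 24 h libraries, with 1 of 3 libraries high in the 24 h group and 1 low in the cold 72 h group. Among 22 feeding peptides tested, Penk, Tac1 and Pdyn were the 3 called lower and 0 were called higher, and the median was -0.11. The share called was 13.6%, against 6.98% of all genes tested. Vgf, a precursor of neuroendocrine peptides, had 160.4, 144 and 147 CPM in cold 72 h libraries, against 121, 172 and 123 CPM in 24 h libraries, and Pmch, the melanin-concentrating hormone precursor of the lateral hypothalamus, had 26.6, 34.3 and 47.9 CPM in cold 72 h libraries, against 39.8, 69.9 and 42.1 CPM in 24 h libraries, though another gene covers 72.4% of it. Both overlapped.

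Of 25 receptors for feeding signals, 2 were called lower and 0 higher, or 8%, which was near the 6.98% called among all genes tested. Mchr1, the receptor for melanin-concentrating hormone, had 6.81, 6.31 and 6.40 CPM in cold 72 h libraries, against 10.5, 13.8 and 9.74 CPM in 24 h libraries, with no overlap and a log2 fold change of -0.80 ± 0.20 (edgeR, adjusted p = 0.0342). Oprd1, the delta opioid receptor gene, had 4.65, 8.08 and 5.20 CPM in cold 72 h libraries, against 11.6, 9.86 and 11.5 CPM in 24 h libraries. The leptin receptor gene Lepr was higher in every cold 72 h library, with 10.2, 17.7 and 13.4 CPM in cold 72 h libraries, against 9.79, 8.05 and 7.85 CPM in 24 h libraries, but was not called (edgeR, adjusted p = 0.0595). Its level was 11.2, 14.5 and 13.3 CPM in the 72 h group without cold. The Npy receptor genes Npy1r and Npy5r averaged 14.6 ± 1.96 CPM in the cold 72 h group and 19.98 ± 2.69 CPM in the 24 h group for Npy1r, and 3.73 ± 0.691 CPM in the cold 72 h group and 5.31 ± 0.245 CPM in the 24 h group for Npy5r, without overlap and uncalled. Htr2c, the serotonin receptor gene of Pomc neurons, had 228, 263 and 238 CPM in cold 72 h libraries, against 195, 189 and 194 CPM in 24 h libraries and was not called. None of 13 neuroendocrine peptides (median -0.53) or 15 genes of preoptic thermoregulatory neurons (median 0.02) was called. Of 15 genes of thyroid hormone action 2 were called lower, or 13.3%, against 6.98% of all genes tested. These were Crym and the retinoid receptor gene Rxrg, Rxrg with a log2 fold change of -0.78 ± 0.21. The receptor gene Thra had 227, 224 and 219.8 CPM in cold 72 h libraries, against 235, 303 and 243 CPM in 24 h libraries, and was not called.

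Of 8 tested genes known to respond to low temperature, 0 were called, and the groups did not overlap in 2 that were higher and 2 that were lower, against 15.8% and 16.1% of all genes tested. Cirbp, the cold-inducible RNA-binding protein gene, had 57.4, 60.3 and 59.5 CPM in cold 72 h libraries, against 58.3, 61.2 and 52.9 CPM in 24 h libraries, a log2 fold change of 0.04 ± 0.09 (edgeR, adjusted p = 0.816). The fed group had 39.6, 39.3 and 37.4 CPM, lower than every fasted library. Rbm3, its relative, had 69.1, 66.4 and 80.2 CPM in cold 72 h libraries, against 83.4, 109 and 84.0 CPM in 24 h libraries, lower in every cold 72 h library and not called, against 58.6, 45.1 and 43.7 CPM in fed libraries. Among 29 glucocorticoid-responsive genes 0 were called and the median log2 fold change was 0.08. Fkbp5, a co-chaperone gene induced through the glucocorticoid receptor, had 84.2, 68.8 and 77.0 CPM in cold 72 h libraries, against 75.9, 67.4 and 74.2 CPM in 24 h libraries, which overlapped, and 57.2, 48.9 and 49.3 CPM in the 72 h group without cold and 36.8, 37.1 and 35.3 CPM in the fed group. Cdkn1a, the p21 gene, had 66.8, 32.3 and 75.1 CPM in cold 72 h libraries, against 28.5, 34.9 and 27.9 CPM in 24 h libraries. Cold 72 h libraries 1 and 3 were high and library 2 lay among the 24 h libraries, and the gene was not called (edgeR, adjusted p = 0.0549). The glucocorticoid response element, GNACA and TGTNC parted by any 3 bases, was found on either strand in the windows of 4 of 28 of the glucocorticoid-responsive genes, against 0.537% of all genes.

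Few chaperone genes were called. All 22 heat shock and cytosolic chaperone genes had negative log2 fold changes, with a median of -0.30, and 2 were called lower, or 9.09% against 6.98% of all genes called. Chordc1, a partner of Hsp90 (chr9:18292125-18317442), had 65.2, 73.2 and 71.3 CPM in cold 72 h libraries, against 92.8, 115 and 95.3 CPM in 24 h libraries, without overlap, a log2 fold change of -0.53 ± 0.10 (edgeR, adjusted p = 0.0138). Dnajb5, an Hsp70 co-chaperone gene, had 39.8, 35.1 and 35.5 CPM in cold 72 h libraries, against 52.6, 64.8 and 47.0 CPM in 24 h libraries. Hspa1b, an inducible Hsp70 gene with a near-identical neighbour, had 5.65, 5.39 and 6.13 CPM in cold 72 h libraries, against 7.60, 17.4 and 7.996 CPM in 24 h libraries and was not called. Hspa8, the constitutive Hsp70 gene, had 1177, 1127 and 1428 CPM in cold 72 h libraries, against 1262, 1860.1 and 1341 CPM in 24 h libraries, which overlapped. Without library 2 of the 24 h group 19 of the 22 were negative and the median was -0.15, and with 1 surrogate variable 17 were negative and it was -0.0846. The heat shock element, GAA, TTC and GAA each parted by any 2 bases and searched on both strands, was found in the windows of 4 of 18 of these genes, Chordc1, Hspd1, Hspe1 and Hsph1, against 0.662% of all genes. The window of Chordc1 (chr9:18292017-18292316, plus strand) is shown because it is the called gene that holds the element, with its 3 overlapping matches in capitals at the start of transcription.
Chordc1: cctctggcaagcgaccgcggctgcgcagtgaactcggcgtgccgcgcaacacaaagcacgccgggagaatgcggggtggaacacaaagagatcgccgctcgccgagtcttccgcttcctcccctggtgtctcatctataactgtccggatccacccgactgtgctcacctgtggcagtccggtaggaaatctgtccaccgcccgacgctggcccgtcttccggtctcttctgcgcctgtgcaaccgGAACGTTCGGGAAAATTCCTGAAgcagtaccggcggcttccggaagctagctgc

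None of 22 endoplasmic reticulum chaperone and unfolded protein genes was called (median -0.15), although 9 of 20 windows held the endoplasmic reticulum stress element, against 0.137% of all genes. Transcripts of ribosomes and of the respiratory chain gave 1 call in all. Over all genes tested 6.98% were called and the median log2 fold change was -0.03. All 47 cytosolic ribosomal protein genes had negative log2 fold changes with a median of -0.36, and 0 were called. All 41 nuclear genes of oxidative phosphorylation had negative log2 fold changes with a median of -0.31, and 1 was called, or 2.44%. This was the complex I gene Ndufa1, with 14.8, 15.3 and 18.9 CPM in cold 72 h libraries, against 23.8, 37.8 and 21.1 CPM in 24 h libraries. Atp5b, an ATP synthase gene, had 513, 476 and 654 CPM in cold 72 h libraries, against 534, 807 and 553 CPM in 24 h libraries. The summed ribosomal level was 4475, 4389 and 5064 CPM in cold 72 h libraries, against 4921, 7880.0 and 5124 CPM in 24 h libraries. Library 2 of the 24 h group was far above the rest, and without it the medians were -0.11 for both lists, with 44 of 47 and 34 of 41 negative. With 1 surrogate variable they were -0.0118 with 28 of 47 negative for ribosomal genes, and -0.0665 with 28 of 41 negative for oxidative phosphorylation. With an offset for gene span they were -0.129 with 40 of 47 negative, and -0.143 with 37 of 41 negative, in the same order. Gapdh, of glycolysis, had 788, 691 and 931 CPM in cold 72 h libraries, against 827, 1215 and 853 CPM in 24 h libraries, in the same pattern.

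Of the genes of lipid use and of lipid synthesis, 11.1% and 14.3% were called, against 6.98% of all genes tested. Of 27 genes of fatty acid oxidation, lipolysis and ketone use, 1 was called higher and 2 lower. Angptl4, an inhibitor of lipoprotein lipase induced by fasting (chr17:33773750-33781830), had 12.0, 10.7 and 6.91 CPM in cold 72 h libraries, against 4.69, 4.65 and 4.29 CPM in 24 h libraries, and 3.71, 2.64 and 5.25 CPM in the 72 h group without cold. All cold 72 h libraries were above all others given, and the log2 fold change against 24 h was 1.12 ± 0.28 (edgeR, adjusted p = 0.0353). Ppara, the nuclear receptor gene for fatty acids, had 3.48, 4.50 and 3.34 CPM in cold 72 h libraries, against 7.85, 6.06 and 6.96 CPM in 24 h libraries. Abhd5, the activator of the triglyceride lipase encoded by Pnpla2, averaged 11.4 ± 1.32 CPM in the cold 72 h group and 16.6 ± 0.946 CPM in the 24 h group (SD, n = 3 each). Pnpla2 itself had 49.0, 36.7 and 54.5 CPM in cold 72 h libraries, against 29.9, 33.4 and 30.8 CPM in 24 h libraries, higher in every cold 72 h library and not called (edgeR, adjusted p = 0.073). Of 28 genes of cholesterol and fatty acid synthesis, 25 had negative log2 fold changes, with a median of -0.23. The median was -0.185 without library 2 of the 24 h group and -0.165 with the gene span offset. In 11 of the 28 every cold 72 h library was below every 24 h library, against 16.1% of all genes tested. The sterol pathway genes Fdft1, Mvk and Msmo1 were called lower, with log2 fold changes of -0.48 ± 0.10, -0.40 ± 0.11 and -0.60 ± 0.17. Acaca, which makes malonyl-CoA, was called higher at 0.35 ± 0.09, and its change was -0.08 once gene span was offset. Among 23 genes of insulin and FoxO signalling 1 was called higher and 2 lower, or 13%, against 6.98% of all genes tested. The lower genes were Foxo6 and Ccng2, a FoxO target, at -0.59 ± 0.14 and -0.72 ± 0.17.

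Of 18 clock genes, the output factors Dbp and Tef were called lower and Rora higher, or 16.7%, against 6.98% of all genes tested. Dbp had 21.1, 20.8 and 22.2 CPM in cold 72 h libraries, against 32.1, 39.1 and 31.4 CPM in 24 h libraries, without overlap and with 34.4, 31.2 and 23.6 CPM in the 72 h group without cold. Tef had 196, 182 and 197 CPM in cold 72 h libraries, against 226, 267 and 239 CPM in 24 h libraries, a log2 fold change of -0.35 ± 0.09. Rora, a nuclear receptor gene of the clock that thalamic neurons also express (chr9:68653786-69388246), had 942, 791 and 953 CPM in cold 72 h libraries, against 554, 416 and 532 CPM in 24 h libraries. The groups were apart, and its log2 fold change was 0.84 ± 0.16 (edgeR, adjusted p = 0.0145), but 0.0563 with an offset for gene span. The E-box CACGTG, bound by the clock factors, was found in the windows of 5 of 17 of these genes, against 8.09% of all genes. Of those 5 Tef was called, and the window of its downstream start (chr15:81811164-81811463, plus strand) is shown with the E-box in capitals.
Tef: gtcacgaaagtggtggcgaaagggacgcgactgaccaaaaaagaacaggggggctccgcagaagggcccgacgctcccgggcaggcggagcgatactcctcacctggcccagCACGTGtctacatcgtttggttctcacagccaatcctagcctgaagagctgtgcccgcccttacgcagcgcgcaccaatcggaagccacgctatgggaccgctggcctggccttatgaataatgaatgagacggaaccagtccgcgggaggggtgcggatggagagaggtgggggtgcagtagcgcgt

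A few other lists held 1 or 2 calls, between 4.55% and 11.8% of the members tested, against 6.98% of all genes tested. Of 17 cell cycle genes, the cyclin gene Ccnd2 had 13.7, 16.4 and 10.4 CPM in cold 72 h libraries, against 25.9, 32.3 and 27.1 CPM in 24 h libraries, a log2 fold change of -1.07 ± 0.15 (edgeR, adjusted p = 0.00912), and the proliferation marker Mki67 averaged 0.887 ± 0.392 CPM in the cold 72 h group and 2.32 ± 0.746 CPM in the 24 h group (SD, n = 3 each). In both every cold 72 h library was below every 24 h library. Of 21 genes of the ATF4 amino acid response Vldlr, a lipoprotein and reelin receptor gene, was lower at -0.37 ± 0.09. Of 10 genes of metallothioneins and zinc transport Slc30a10, a manganese exporter gene, was lower at -0.47 ± 0.12, while Mt1 had 270.5, 204 and 245 CPM in cold 72 h libraries, against 189, 282 and 199 CPM in 24 h libraries and was not called. Of 22 interferon and antigen presentation genes Ifi27 was lower at -0.80 ± 0.18.

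**Figure D4:**
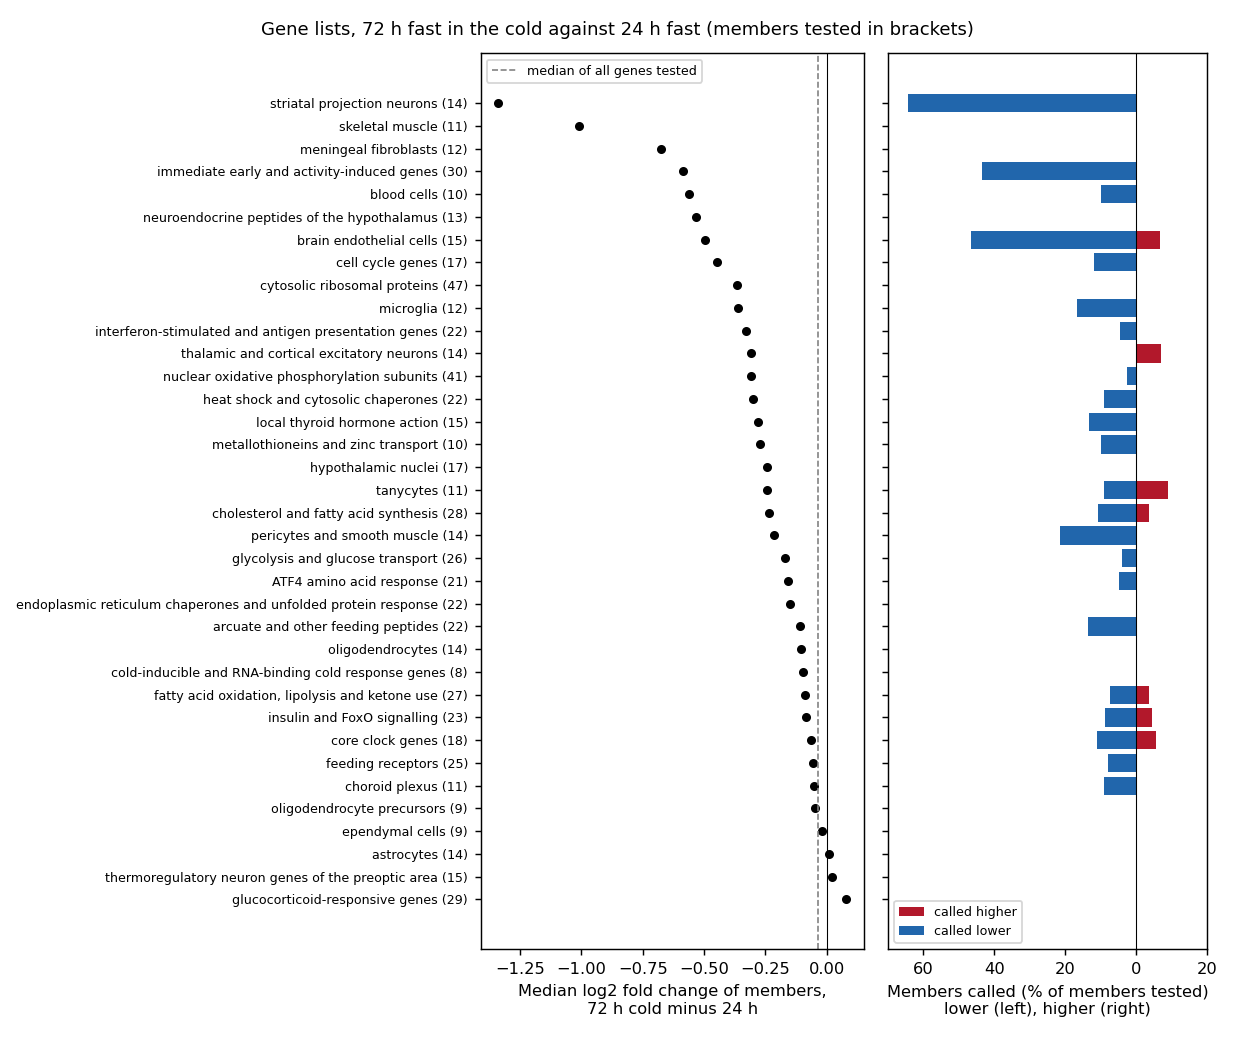
Median log2 fold change, cold 72 h minus 24 h, of the tested members of each gene list with at least 8 tested, the liver list left out (left; the dashed line is the median of all genes tested, -0.03), and the share of members called lower (blue) or higher (red, right). The striatal, activity-induced and endothelial lists have the largest shares called, at 9 of 14, 13 of 30 and 8 of 15 members.

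The lower genes with the largest changes outside these lists encode proteins of different kinds. In each of those given here cold 72 h library 2 was the highest of its group, as in the striatal sum. Any link of these genes to the striatal markers was not tested. Cd4, the T cell co-receptor gene, which microglia and other myeloid cells can also express (chr6:124864692-124888221), had 0.0917, 0.571 and 0.270 CPM in cold 72 h libraries, against 3.97, 4.76 and 3.91 CPM in 24 h libraries. The groups were far apart and the log2 fold change was -3.75 ± 0.54 (edgeR, adjusted p = 0.009). The other groups of the table had 0.758, 0.517 and 0.523 CPM after 72 h without cold and 2.47, 3.96 and 1.05 CPM when fed. Krt9, a keratin gene, had 0.489, 0.761 and 0.511 CPM in cold 72 h libraries, against 2.28, 4.43 and 3.14 CPM in 24 h libraries. Serpina9 and Mei1 averaged 0.956 ± 0.318 CPM in the cold 72 h group and 5.18 ± 1.25 CPM in the 24 h group for Serpina9, and 0.962 ± 0.497 CPM in the cold 72 h group and 4.93 ± 3.06 CPM in the 24 h group for Mei1 (SD, n = 3 each). Sh3rf2, a ring finger gene, had 1.16, 4.72 and 1.08 CPM in cold 72 h libraries, against 14.6, 12.2 and 14.2 CPM in 24 h libraries, with cold 72 h library 2 the highest of its group as in Drd1 and Adora2a.

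The genes that rose included large changes at low level. The 12 largest changes among genes of at least 1 CPM were all under 5 CPM on average in the cold 72 h group and under 1 CPM in the 24 h group. Vmn2r56, a vomeronasal receptor gene of a family with similar copies (chr7:12688721-12735004), had 5.13, 2.06 and 2.40 CPM in cold 72 h libraries, against 0.219, 0.0738 and 0.326 CPM in 24 h libraries. Cold 72 h library 1 was much the highest, and the log2 fold change was 3.89 ± 0.52 (edgeR, adjusted p = 0.00675). Vmn2r2 and Vmn2r53, of the same family, changed by 2.14 ± 0.34 and 2.13 ± 0.45. Treh, the trehalase gene, had 2.05, 1.01 and 2.43 CPM in cold 72 h libraries, against 0.282, 0.111 and 0.207 CPM in 24 h libraries. Tex35, Meiob and Atp1a4, genes known from testis, had log2 fold changes of 2.94, 2.19 and 2.67. Tigit, an immune receptor gene of T cells, had 4.61, 2.69 and 2.37 CPM in cold 72 h libraries, against 0.626, 0.591 and 0.711 CPM in 24 h libraries. D6Ertd474e, Cyp2j8, BC018473 and Tex51 completed the set, between 2.09 and 3.54. Apart from Tex51, where 69.0% of the span is shared, other genes overlap at most 3.15% of the span of any of them.

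Among abundant transcripts Neat1 and the long neuronal gene Nalf1 rose, both chosen after their values were seen. Neat1, the nuclear noncoding RNA that builds paraspeckles (chr19:5824708-5845478), had 82.5, 122 and 93.2 CPM in cold 72 h libraries, against 48.3, 25.4 and 44.1 CPM in 24 h libraries. The groups were far apart, with a log2 fold change of 1.33 ± 0.20 (edgeR, adjusted p = 0.00929), and the call held under all 17 alternatives. The 72 h group without cold had 68.1, 71.7 and 78.0 CPM. Nalf1, which encodes an auxiliary factor of the NALCN sodium leak channel (chr8:9205902-9771161), had 2037, 1619.5 and 1621 CPM in cold 72 h libraries, against 674, 329 and 628 CPM in 24 h libraries, with library 2 of the 24 h group the lowest. Its log2 fold change was 1.69 ± 0.39 (edgeR, adjusted p = 0.0325), and the call was lost under 8 of 17 alternatives, among them each of the 6 left-out libraries, with values between 0.9963 and 1.898 over all 17.

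The change went with gene span across the transcriptome. Over 20357 genes with an annotation, the log2 fold change correlated with the span at a Spearman rho of 0.323, a description across genes that share libraries. It correlated with the summed exon length at 0.102. With these genes split by span into 4 bins of equal size, in bin 1 (the shortest, median span 3.48 kb) the median log2 fold change was -0.19, with 52 genes called higher and 154 lower. In bin 4 (the longest, median span 106 kb) it was 0.16, with 505 called higher and 109 lower. Long noncoding RNAs were 180 of the 766 higher genes, 61 of the 658 lower genes and 15.3% of the genes not called. With an offset for gene span 633 genes were called higher and 650 lower, and 939 of these 1283 genes were among the 1424. The share of RNA that was unspliced or degraded in each library was not tested.

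**Figure D5:**
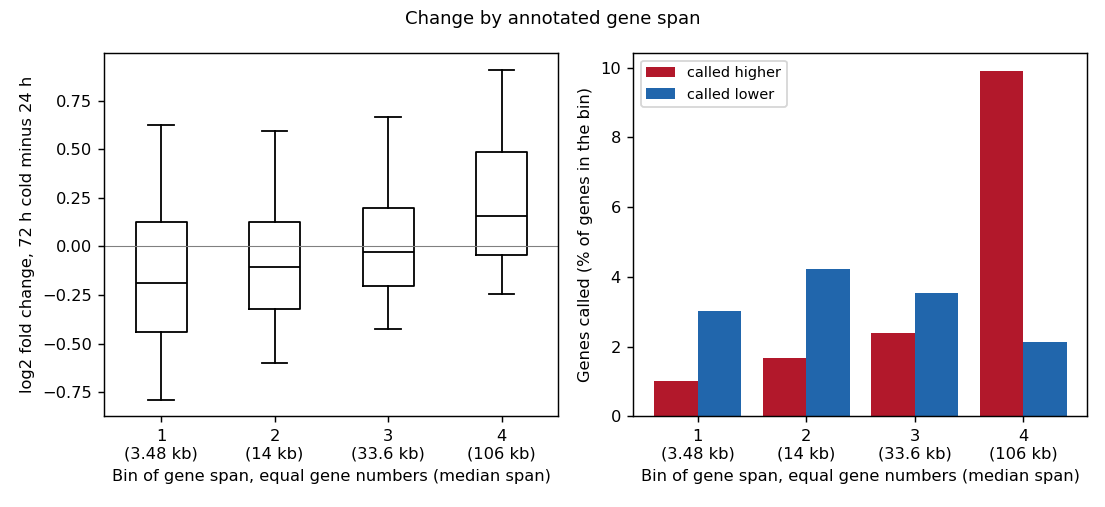
Left, log2 fold change, cold 72 h minus 24 h, by bin of annotated gene span, shortest to longest (5090 genes in bin 1; median span below each box; boxes are quartiles, whiskers the 10th to 90th percentile). Right, share of the genes of each bin called higher (red) or lower (blue). The share called higher was 1.02% in bin 1 and 9.92% in bin 4, and the share called lower was 3.03% in bin 1 and 2.14% in bin 4.

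The called genes were not spread evenly over the libraries of a group. Cold 72 h library 1 was the highest of its group for 57.6% of the 766 higher genes and the lowest for 43.9% of the 658 lower genes. Library 2 of the 24 h group was the lowest of its group for 81.9% of the higher genes and the highest for 71.6% of the lower genes.

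The cold 72 h libraries were also set against the 72 h libraries without cold, which share the duration of the fast. In this contrast edgeR called 0 genes (0% of those tested), and 1296 genes had an unadjusted p below 0.05. DESeq2 called 57 and limma voom 5. Both contrasts share the cold 72 h libraries, so they are not independent, and values are given side by side. For Arc the log2 fold change was -1.63 ± 0.21 against 24 h and -0.06 ± 0.21 against 72 h without cold. For Drd1 it was -2.45 ± 0.57 and 0.33 ± 0.57, and for Neat1 1.33 ± 0.20 and 0.45 ± 0.20. Kctd21 had -1.04 ± 0.11 and -0.57 ± 0.11 (edgeR, adjusted p = 0.273 for the second), and 14.2, 16.1 and 13.8 CPM in the 72 h libraries without cold, between the levels of the other groups. Tie1 had -1.02 ± 0.21 and -1.02 ± 0.21, and Angptl4 1.12 ± 0.28 and 1.34 ± 0.28, both uncalled in the second contrast. Fos had -0.90 ± 0.26 against 24 h and 1.14 ± 0.27 against 72 h without cold. Fkbp5 had 0.08 ± 0.10 and 0.57 ± 0.10. In the second contrast 20 of 29 glucocorticoid-responsive genes had an unadjusted p below 0.05 in edgeR, with a list median of 0.494. Of 15 endothelial markers 7 did, with a median of -0.275. Over all genes 1296 of 20408 did, with a median of -0.00325. Both lists were picked here after their values were seen. A p that misses the threshold does not show that the groups with the same duration are alike.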

How the data were processed

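RNA had been purified on columns from mouse hypothalamus and made into directional libraries after removal of ribosomal RNA, per the labels' protocols. Per the submitters' processing notes the authors used HISAT2, featureCounts, edgeR and the mm10 build, with no versions given. The authors deposited a table of raw counts, whole reads per gene, not normalised. It appears to have been counted without strand over whole gene spans, so genes inside others can be at 0 and are not read as silent. The counting options are not given in the sources used here.

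From it 12 libraries in 4 groups of 3 were fitted together with edgeR 4.0.16 in R 4.3.3 (filterByExpr, TMM, robust quasi-likelihood F test, prior count 0.125, Benjamini-Hochberg over all genes tested, threshold 0.05), which leaves 8 residual degrees of freedom. No library was left out. Spans, overlaps and coordinates came from GENCODE M21 (GRCm38), and promoters from RefSeq. DESeq2 1.42.0, limma 3.58.1 (voom) and sva 3.50.0 gave alternatives, beside other scalings and filters, a replicate block, an offset for gene span and each library left out. The fit was tested on simulated counts, where it recovered 38% of genes changed 1.5-fold and 62% of those changed 2-fold. It recovered 94% at 3-fold and 92% at 5-fold, with 11 false calls among 20099 genes. The simulated counts were drawn independently, with no trend with gene span and with all libraries of a group equally alike, unlike these data. The CArG box search was added after the values were seen.

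The members, the lists and the rule for named genes were chosen with earlier results of these data known. The rule took Agrp, Npy, Pomc and Cartpt. It took the 12 called genes of largest change each way, at a mean of 1 CPM or more and with groups that did not overlap, without unnamed, Gm or Rik gene models. From each list it took up to 4 called members of smallest adjusted p and, where any was called, up to 2 uncalled members of highest mean CPM. It also took the 10 called genes of smallest adjusted p at a mean of 10 CPM or more. Some of these are not reported here. Chosen after their values were seen were Fos, Fkbp5, Cdkn1a, Cirbp, Rbm3, Neat1, Nalf1, Alb, Lepr, Npy1r, Npy5r, Pnpla2, Hspa1b, Kcnv1, Chrm1, Itpka, Ddn, Nrgn and the further called members Egr1, Npas4, Fosl2, Ier5, Nr4a3, Btg2, Rgs9, Ppp1r1b, Rasd2, Itm2a, Slco1a4 and Tek.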

Additional observations from a re-analysis of the deposited data

How the results depend on the processing

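The count of 1424 genes called was 2830 with DESeq2, 4160 with voom, 852 with only the 2 groups compared in the fit and 221 with 1 surrogate variable. RLE and upper quartile scaling, both changes of the filter on low counts and the gene span offset gave between 1046 and 1539. Leaving out 1 library at a time gave between 39 and 989. For cold 72 h against 72 h without cold the count of 0 was 57 with DESeq2, 5 with voom, 1 with the gene span offset and 2 with the offset and replicate block, and between 0 and 5 with 1 library left out. Same-numbered cold 72 h and 24 h libraries correlated at 0.114, -0.231 and -0.274 in their deviations from the group means. Of the cold 72 h libraries 1 of 3 correlated best with its own number. Same-numbered cold 72 h libraries and 72 h libraries without cold correlated at 0.194, 0.259 and -0.074. With 3 libraries per group these values cannot show whether the numbers pair the libraries. The replicate block gave 1557 calls, and 1345 with the gene span offset.

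Of 95 called genes that were followed, 12 kept their call under all 17 alternatives and 14 under every left-out library, and 81 lost it without cold 72 h replicate 1. Of the 95, Acaca changed sign, to -0.0775 with the gene span offset and -0.0744 with the offset and block. Among uncalled genes Npy was 0.12 with voom, 0.39 with 1 surrogate variable, 0.077 with the offset and 0.0779 with the offset and block, and between -0.3037 and 0.21 with 1 library left out. Htr2c was -0.0502 with the offset and -0.0498 with the block added, and Fkbp5 was -0.0702 and -0.0731 likewise. Atp5b was 0.11 with 1 surrogate variable and between -0.3529 and 0.0093 with 1 library left out. The cause was not tested.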
